A study of Mus musculus with 16 samples.

Results

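Messenger RNA of 10 genes that make, lengthen and desaturate fatty acids was followed in mouse Th17 cells, the helper T cells that secrete IL-17, with and without a T cell deletion of PDH and with and without added acetate. The genes were chosen by name: the regulator Srebf1, the synthetic enzymes Acaca and Fasn, the elongases Elovl1, Elovl5 and Elovl6, and the desaturases Scd1, Scd2, Fads1 and Fads2. All 10 were found among the 15571 genes of the count table and all 10 passed the filter on low counts, which left 14985 genes. Wild-type (WT) cells came from mice with floxed PDH alleles (PDH fl/fl) and knockout (KO) cells from PDH fl/fl mice that also carried CD4-Cre, which acts in T cells, so both genotypes had the floxed alleles. PDH is the pyruvate dehydrogenase complex, which turns pyruvate into acetyl-CoA in mitochondria; the labels do not name the floxed gene, and the sample titles spell the complex PHD. Naive CD4 T cells from spleen and lymph nodes were grown for 3 days on anti-CD3 (5 µg/mL) with anti-CD28 (1 µg/mL), IL-6 (30 ng/mL), TGFβ (2 ng/mL) and a blocking antibody to IFNγ (5 µg/mL), either untreated or with sodium acetate at 10 mM. There were 4 libraries per group and 4 groups, called WT untreated and WT acetate, KO untreated and KO acetate. No group received sodium without acetate or carried Cre without the floxed alleles. Whether the 4 libraries of a group represent separate mice or separate cultures is not stated in the labels, and the p-values therefore reflect only the scatter among these libraries, which may be technical.

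Fatty acids are built in the cytosol from acetyl-CoA. Acetyl-CoA is made there from exported citrate or directly from acetate; acetyl-CoA carboxylase turns it into malonyl-CoA, and fatty acid synthase joins these units into palmitate. Enzymes of the endoplasmic reticulum then lengthen the chain and place double bonds in it, and activated T cells use the products for membranes as they divide. Transcription of most of these genes is driven by SREBP proteins and, in part, by liver X receptors (LXR).

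Abundance is given as CPM, a count per M counts of the library after TMM scaling, which corrects for differences in composition. Totals lay between 24.57 and 33.72 M estimated counts. In 4 libraries (WT untreated 1, KO untreated 1 and 2, KO acetate 2) a single gene without a name took over 3% of the counts, against 0.267 to 1.53% in the other 12, and calls of the 10 genes that change without these 4 are marked. The lowest count of any of the 10 genes was 849, for Elovl6 in KO untreated 2. All 5 T cell markers (Cd3e, Cd3g, Cd4, Lck, Cd28) were measured, with a sum of 1966 to 2000.2 CPM in WT untreated libraries and of 1735 to 1836 CPM in those of KO untreated. With acetate their sum was 1796 to 1872 CPM in WT and 1748 to 1810 CPM in KO libraries. The 6 Th17 markers summed to 683 to 1089.7 CPM in WT and 634 to 909.7 CPM in KO untreated libraries, and to 1227 to 2066 CPM in WT acetate and 1579 to 2809.9 CPM in KO acetate libraries. The CD8 T cell markers Cd8a and Cd8b1 summed to 9.08 to 11.2 CPM in WT untreated, 5.13 to 8.35 in KO untreated, 13.1 to 17.2 in WT acetate and 13.7 to 18.2 in KO acetate libraries. Each of these 3 marker sums differed between some of the groups, while the Th17 sums of WT and KO libraries overlapped in both conditions. The part of these sums in the results below was not tested. Measured B cell (4 of 4), myeloid (3 of 6), NK cell (1 of 3) and stromal or adipocyte (1 of 4) markers summed to at most 5.36 CPM in any library. The complex's subunit gene Pdha1 averaged 247 ± 12.6 CPM without and 225 ± 11.5 CPM with the knockout in untreated cells (SD, n = 4 each; adjusted p = 0.0761), which does not check the genotype because the deleted exons are not given. In bulk RNA, fewer cells of a type and less RNA per cell cannot be told apart.

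Promoter sequences are shown for the 3 genes whose group means spanned the widest range, Fasn and Fads2, highest in KO untreated cells, and Elovl6, lowest there. They are the 250 bases before a RefSeq transcription start (build GRCm38.p6), read 5′ to 3′ on the gene's strand, for Fasn at chr11:120824548-120824797 (minus strand), for Elovl6 at chr3:129532136-129532385 (plus strand) and for Fads2 at chr19:10101504-10101753 (minus strand). Capitals mark matches to CCAAT on either strand, the box bound by NF-Y, a partner of SREBP.
Fasn: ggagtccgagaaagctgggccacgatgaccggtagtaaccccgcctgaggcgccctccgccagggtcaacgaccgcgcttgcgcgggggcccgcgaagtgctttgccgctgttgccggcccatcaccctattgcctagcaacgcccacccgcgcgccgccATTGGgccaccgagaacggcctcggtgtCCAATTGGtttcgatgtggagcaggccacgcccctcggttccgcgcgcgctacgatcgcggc
Elovl6: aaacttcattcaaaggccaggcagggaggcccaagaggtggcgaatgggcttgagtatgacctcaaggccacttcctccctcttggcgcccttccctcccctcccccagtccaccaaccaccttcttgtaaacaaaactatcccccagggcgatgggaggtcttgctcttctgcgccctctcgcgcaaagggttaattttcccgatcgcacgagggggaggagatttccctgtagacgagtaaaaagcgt
Fads2: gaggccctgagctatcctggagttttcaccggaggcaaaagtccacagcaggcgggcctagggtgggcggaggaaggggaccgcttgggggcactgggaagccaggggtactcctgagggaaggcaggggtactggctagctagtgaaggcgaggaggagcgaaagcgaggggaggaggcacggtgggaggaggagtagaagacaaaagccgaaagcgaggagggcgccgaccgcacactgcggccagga
The Fasn window held 3 matches to CCAAT, of which 2 overlap as CCAATTGG; that stretch also holds a match to CANNTG, the E-box. The Elovl6 and Fads2 windows held no match to either motif. Among 32851 windows of this length, 33.8% held CCAAT and 66.2% held CANNTG. The core of the sterol response element, searched as TCACNCCAC on both strands, was in none of the 10 windows of the 7 genes that had an entry and in 1.05% of all windows. No promoter is shown for Scd1, Scd2 and Fads1. Absence of these letters from a window says nothing about binding of a factor.

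In the absence of acetate, KO cells had more RNA of both synthetic enzymes, of Srebf1 and of the desaturases Scd2 and Fads2 than WT cells, and 2.22-fold less of the elongase Elovl6. With acetate, Fasn, Acaca, Fads1 and Fads2 fell in both genotypes, and Elovl6 rose in KO cells. Between KO and WT cells with acetate, 1 of these genes was called, Acaca. A gene was called changed at an adjusted p under 0.05 in edgeR's quasi-likelihood test (Benjamini-Hochberg over 14985 genes). Without acetate, 5 of the 10 rose (Srebf1, Acaca, Fasn, Scd2, Fads2) and 1 fell (Elovl6) in KO against WT cells, where 36.6% of all genes were called, 18.0% higher and 18.6% lower. The 4 KO and the 4 WT libraries did not overlap for 5 of the 10 genes and for 36.0% of all genes. Acetate lowered 4 of the 10 in WT cells (Acaca, Fasn, Fads1, Fads2), where 15.4% of all genes were called, 7.55% lower and 7.89% higher, and 6 of the 10 did not overlap, as against 21.3% of all genes. In KO cells acetate lowered 7 (Srebf1, Acaca, Fasn, Elovl1, Scd2, Fads1, Fads2) and raised Elovl6, where 43.7% of all genes were called, 21.6% lower and 22.1% higher, and 7 of the 10 did not overlap, as against 37.7% of all genes. With acetate in both genotypes 1 of the 10, Acaca, was higher in KO than in WT cells. In this comparison 1.00% of all genes were called, 0.487% higher and 0.514% lower. Here 3 of the 10 (Acaca, Fasn, Fads2) and 9.36% of all genes did not overlap. KO acetate against WT untreated cells had 2 of the 10 lower, Elovl1 and Fads1, and 26.4% of all genes called, 12.9% higher and 13.5% lower. The libraries of these groups did not overlap for 3 of the 10 and for 28.4% of all genes. The acetate effects differed between genotypes for 2 of the 10, Elovl6 and Fasn, and for 11.9% of all genes, 6.37% higher and 5.54% lower in KO.

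**Figure D1:**
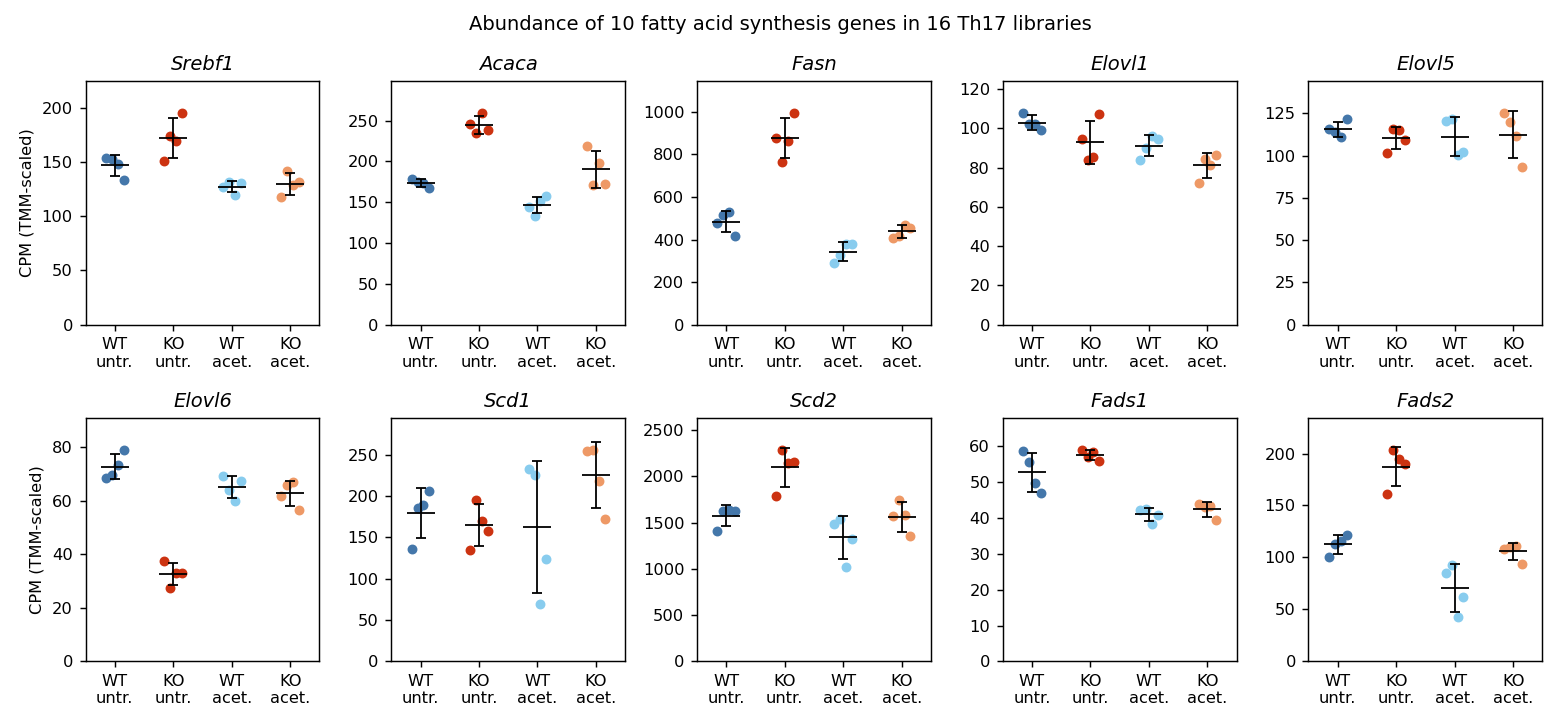
TMM-scaled CPM of the 10 genes in the 16 libraries, one panel per gene and one point per library, with the mean and SD of each group of 4 (the y axes differ between panels and start at 0). Fasn, Acaca and Fads2 are highest in the KO untreated group, Elovl6 is lowest there, and Elovl5 lies between 93.2 and 125 CPM in every library.

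The median log2 fold change of the 10 genes was 0.18 for KO against WT without acetate (0.01 over all genes), 0.14 with acetate (0.01), -0.22 for acetate in WT (0.00) and -0.39 for acetate in KO cells (-0.01). The KO untreated libraries enter both the comparison with WT untreated cells and that with KO acetate cells, and each other group likewise enters more than 1 comparison, so these medians are not independent of each other. When the libraries were scaled by their totals in place of TMM, the median of all genes for acetate in KO cells shifted by 0.10. The counts among the 10 became 4 higher and 2 lower for KO against WT without acetate, where Srebf1 was lost and Elovl1 gained (log2 -0.21, adjusted p = 0.0386), and 2 lower for acetate in WT.

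**Figure D2:**
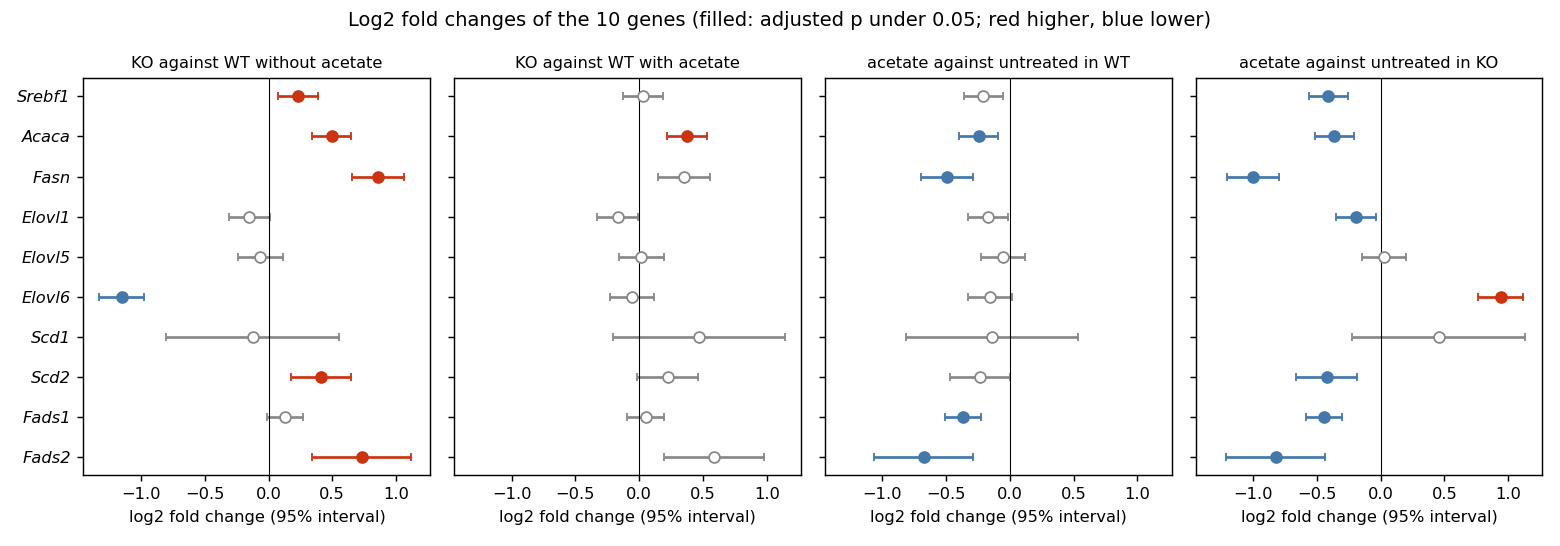
Log2 fold changes with 95% intervals for the 10 genes, for KO against WT without and with acetate and for acetate in WT and in KO cells. Filled points were called at an adjusted p under 0.05. Elovl6 is at -1.15 for KO against WT without acetate and at 0.94 for acetate in KO cells, opposite in sign to Fasn, which rose by 0.86 and fell by 1.00.

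Srebf1 encodes SREBP-1, the transcription factor that drives the lipogenic genes after its precursor is cleaved; its RNA does not report that cleavage. Srebf1 was at 153, 152, 148 and 133 CPM in the WT untreated libraries and at 151, 174, 169 and 195 CPM in KO untreated. With acetate it was at 126.5, 132, 119.9 and 130.2 CPM in WT and at 117, 142, 128 and 131 CPM in KO. The untreated groups overlapped, whereas each acetate group lay below the untreated group of its genotype. Srebf1 rose by 0.23 ± 0.07 on the log2 scale (SE; 1.17-fold, adjusted p = 0.0198) in KO untreated cells. That call was lost without WT untreated 4 (0.18, adjusted p = 0.0786) or KO untreated 4 (0.17, 0.0771), and under scaling by library totals (0.18, 0.0992). Acetate lowered it 1.33-fold in KO cells (log2 -0.41, adjusted p = 0.000191), and in WT cells the difference of -0.21 had an adjusted p of 0.0647. This WT difference became a call in DESeq2's test (adjusted p = 0.0475) and when only the WT groups were fitted (0.0298). It also became one without WT untreated 4 (0.0401), KO untreated 1 (0.0483) or KO untreated 4 (0.0426). An exon of Srebf1 overlaps the antisense gene Rai1 by 109 bases, and use of strand in the counting is not stated.

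Acaca, acetyl-CoA carboxylase 1 in the cytosol, makes the malonyl-CoA that extends the chain. It was at 179, 174.5, 174 and 167 CPM in WT untreated and at 246, 235, 259.5 and 239 CPM in KO untreated libraries. With acetate it was at 145, 133, 151 and 157 CPM in WT and at 219, 171, 198 and 172 CPM in KO. In each culture condition every KO library was above every WT library. Acaca was 1.41-fold higher in KO untreated cells (log2 0.50 ± 0.07, SE; adjusted p = 4.90e-05). With acetate it was 1.30-fold higher (log2 0.38 ± 0.07, adjusted p = 0.0239), a call lost without any 1 of WT acetate 2 (0.0557), WT acetate 3 (0.0607), KO acetate 1 (0.101) or KO acetate 3 (0.0871), with library totals as the scaling (0.0511) and when only these groups were fitted (0.111). Acetate lowered Acaca in WT (log2 -0.24, adjusted p = 0.0304) and KO cells (log2 -0.36, adjusted p = 0.000533). The WT call was lost with any 1 of WT untreated 1, 2 or 3 or WT acetate 1 or 2 left out, without the 4 libraries named above (adjusted p = 0.0650), with upper-quartile scaling (0.0559) and with library totals (-0.20, 0.170).

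Fasn, fatty acid synthase, makes palmitate, and its group means spanned 1.35 on the log2 scale, against 0.74 for Acaca and 0.43 for Srebf1. It was at 476, 516, 528 and 416 CPM in WT untreated and at 878, 767, 863 and 996 CPM in KO untreated libraries. The acetate groups stood at 288, 329.8, 379 and 378 CPM in WT and at 409, 419, 469.8 and 455 CPM in KO. No library of one genotype overlapped the other in either condition, whereas KO acetate libraries lay within the WT untreated range of 416 to 528 CPM except one at 409. Fasn was 1.81-fold higher in KO untreated cells (log2 0.86 ± 0.10, SE; adjusted p = 3.13e-06). Acetate lowered it 2.00-fold in KO cells (it fell by 1.00 on the log2 scale, adjusted p = 2.21e-07) and 1.41-fold in WT cells (log2 -0.49, adjusted p = 0.00207). The test of the difference between these acetate effects gave -0.50 ± 0.14 on the log2 scale (adjusted p = 0.0223). That call was lost without WT untreated 4 (adjusted p = 0.0507), without WT acetate 4 (0.0523), without the 4 libraries with the high share (-0.56, 0.0599) and with scaling by library totals (-0.44, 0.0547). With acetate in both genotypes Fasn was 0.35 higher in KO on the log2 scale with an adjusted p of 0.0754. This difference became a call in DESeq2's test (adjusted p = 0.0185), with upper-quartile scaling (0.0473) and when replicate number was added to the fit (0.0463).

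**Figure D3:**
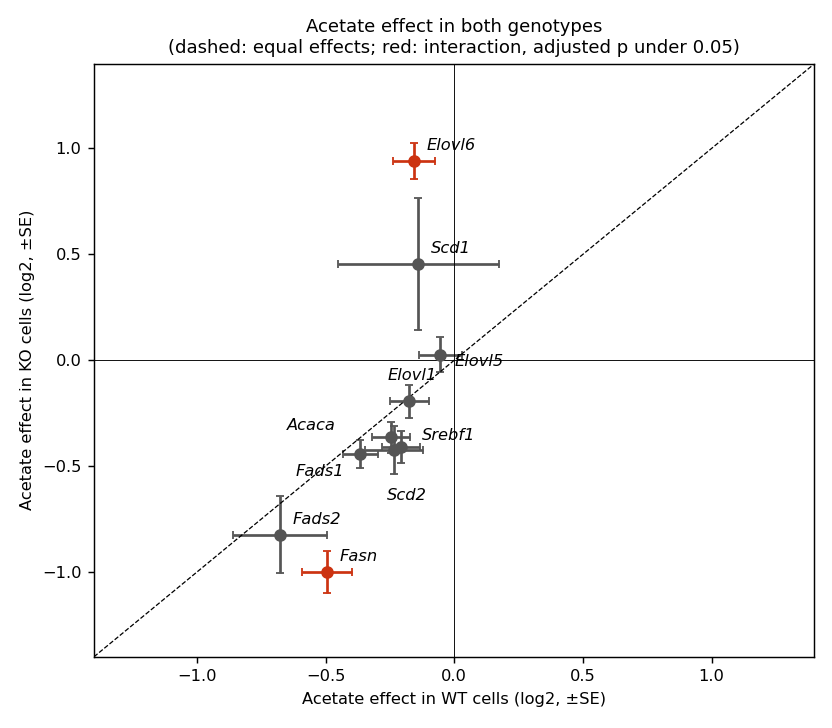
Log2 acetate effect in KO cells (y axis) against that in WT cells (x axis), one point per gene with the standard error of each; the line marks equal effects. Elovl6 lies far above the line, at 0.94 in KO and -0.16 in WT, and Fasn, which fell by 1.00 in KO and 0.49 in WT, lies below it; the 2 effects use separate libraries.

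Elongases catalyse the first step of each round of chain lengthening. Elovl6, which extends palmitate to stearate, went the other way from the synthetic genes. It was at 68.7, 69.9, 73.3 and 79.2 CPM in WT untreated but at 37.4, 27.5, 33.0 and 33.1 CPM in KO untreated libraries. In the acetate groups it was at 69.1, 64.3, 60.1 and 67.5 CPM in WT and at 61.8, 65.9, 67.2 and 56.5 CPM in KO. The KO untreated libraries were the 4 lowest of the 16, with no overlap with any other group. Elovl6 was 2.22-fold lower in KO than in WT untreated cells (log2 -1.15 ± 0.08, SE; adjusted p = 2.82e-08) and rose 1.92-fold with acetate in KO cells (log2 0.94, adjusted p = 7.48e-08). In WT cells the acetate difference was -0.16 (95% interval -0.33 to 0.01, adjusted p = 0.216). The acetate effects differed between the genotypes by 1.10 ± 0.12 on the log2 scale (adjusted p = 1.53e-05). KO acetate cells were 0.21 below WT untreated cells on the log2 scale (adjusted p = 0.0624), and without the 4 libraries with the high share this became a call (-0.27, adjusted p = 0.0222). The difference was also called in DESeq2's test (adjusted p = 0.0411), when only these groups were fitted (0.0306), and without KO untreated 1 (0.0373) or 2 (0.0249).

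Elovl1 lengthens very long saturated and monounsaturated chains, and Elovl5 acts on polyunsaturated ones. Elovl1 was at 108, 102, 102.5 and 99.0 CPM in WT untreated and at 94.8, 83.8, 85.4 and 107 CPM in KO untreated libraries. The acetate groups were at 83.8, 90.2, 96.2 and 94.8 CPM in WT and at 72.2, 84.3, 81.5 and 86.5 CPM in KO. The untreated groups overlapped, and the KO acetate group lay wholly below the WT untreated group. Elovl1 fell by 0.34 ± 0.08 on the log2 scale in KO acetate against WT untreated cells (adjusted p = 0.00291). It fell by 0.19 with acetate in KO cells (adjusted p = 0.0452), a call that was lost in 9 of 16 refits with 1 library left out. Separately, the call was lost with library-total scaling (-0.09, adjusted p = 0.367) and when only the KO groups were fitted (0.0953). Reads from a stretch of 53 bases shared with the antisense gene Cdc20 may be split between both, for the same reason.

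Elovl5 had group means of 115 ± 4.51 CPM in WT untreated, 110.4 ± 6.68 in KO untreated, 111 ± 11.5 in WT acetate and 112 ± 14.0 in KO acetate cells (SD, n = 4 each). It was not called in any of the 6 comparisons. The 95% intervals of its log2 differences between pairs of groups ran from -0.24 to 0.20 in all, so larger changes lie outside the intervals of this fit.

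The stearoyl-CoA desaturases put the first double bond into saturated chains. Scd2, the more abundant of both, was at 1405, 1631, 1639 and 1631 CPM in WT untreated and at 1790.3, 2291, 2147 and 2159 CPM in KO untreated libraries. With acetate it was at 1488, 1535, 1016 and 1322 CPM in WT and at 1568.5, 1749.6, 1583 and 1353 CPM in KO. All KO untreated libraries were above all others, and the remaining 3 groups overlapped. Scd2 was 1.33-fold higher in KO untreated than in WT untreated cells (log2 0.41 ± 0.11, SE; adjusted p = 0.00819) and fell 1.34-fold with acetate in KO cells (log2 -0.42, adjusted p = 0.00518). In WT cells acetate gave -0.23 with an adjusted p of 0.182.

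Scd1 was spread widely within groups. It was at 136, 186, 189.6 and 206 CPM in WT untreated and at 135, 196, 169 and 158 CPM in KO untreated libraries. With acetate it was at 233, 225, 69.1 and 124 CPM in WT and at 255, 256, 218 and 172 CPM in KO. All groups overlapped, and the WT acetate group alone ran from 69.1 to 233 CPM. Scd1 was not called in any comparison, with intervals as wide as -0.80 to 0.55 for KO against WT without acetate. For acetate in KO cells its difference was 0.46 (adjusted p = 0.264), which became a call when the fit held the KO groups alone (adjusted p = 0.0246). Scd1 and Scd2 are close paralogs, and how reads shared between them were divided is not known. Scd2 also holds the microRNA gene Mir5114 on its own strand.

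Fads1 and Fads2 introduce the later double bonds of polyunsaturated fatty acids, Fads2 at the earlier step. Fads2 was at 100.5, 113, 115 and 122 CPM in WT untreated and at 161, 204, 195 and 189.9 CPM in KO untreated libraries. With acetate it was at 85.1, 92.9, 42.4 and 61.6 CPM in WT and at 108.5, 110.5, 110.9 and 93.2 CPM in KO. KO libraries were above WT libraries in both conditions, with no overlap. Fads2 rose 1.66-fold in KO untreated cells (log2 0.73 ± 0.18, SE; adjusted p = 0.00606), a call lost without the 4 libraries with the high share (0.72, adjusted p = 0.0788). It fell 1.60-fold with acetate in WT (log2 -0.68, adjusted p = 0.0225) and 1.77-fold in KO cells (log2 -0.82, adjusted p = 0.00206). The WT call was lost without WT untreated 3 or 4 or WT acetate 4, without the high-share libraries (-0.74, 0.0606), when only the WT groups were fitted (0.0989) and with library totals (-0.63, 0.0652). With acetate in both genotypes Fads2 was 0.58 ± 0.18 higher in KO with an adjusted p of 0.113. This difference became a call in DESeq2's test (adjusted p = 0.0128), and without WT acetate 3 it was 0.40 in edgeR (0.148).

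Fads1 changed with acetate in both genotypes. It was at 58.8, 55.7, 49.7 and 47.0 CPM in WT untreated and at 59.1, 57.1, 58.5 and 55.9 CPM in KO untreated libraries. The acetate groups were at 42.3, 42.5, 38.4 and 40.8 CPM in WT and at 44.0, 43.0, 43.3 and 39.3 CPM in KO. Every acetate library was below every untreated one. Fads1 fell by 0.36 ± 0.07 on the log2 scale in WT cells (SE; adjusted p = 0.00126) and by 0.44 ± 0.07 in KO cells (adjusted p = 3.43e-05). The difference between these effects was -0.08 (95% interval -0.28 to 0.12). Between genotypes the untreated difference was 0.13 with an adjusted p of 0.147. It became a call with upper-quartile scaling (0.18, adjusted p = 0.0398) and without WT untreated 1 (0.18, 0.0428).

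Within each group the library with the lowest Scd1 also had the lowest Scd2 and Fads2 (WT untreated 1, KO untreated 1, WT acetate 3, KO acetate 4), a pattern noticed after the values were seen. Of the 14985 genes tested, 412 (2.75%) had their lowest value in the same 4 libraries, among the listed genes also Acly, Slc25a1, Mid1ip1, Abca1 and Lpin1. In WT acetate 3 the log2 CPM was below the group mean by -1.07 for Scd1, -0.38 for Scd2 and -0.67 for Fads2. Elovl5 and Elovl6 shared the lowest library with Scd1 in 3 of the 4 groups, and Srebf1 and Fads1 in 2. Fasn, Acaca and Elovl1 were not lowest in any of these 4 libraries.

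**Figure D4:**
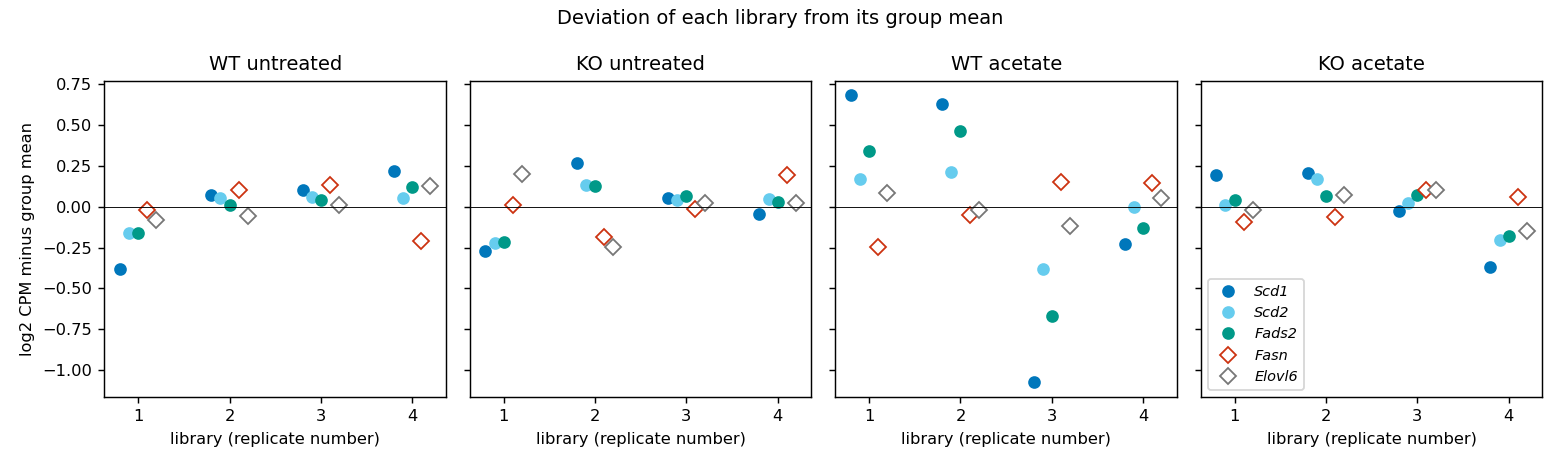
Log2 CPM minus the mean of the library's group for 5 genes in the 16 libraries, one panel per group, with the replicate number on the x axis. In WT acetate 3 Scd1 is at -1.07 and Fads2 at -0.67, while Fasn is above its mean there.

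Levels can be compared between genes once divided by transcript length, here the longest coding transcript of the GENCODE M21 annotation. In WT untreated cells Scd2 was highest at 289 ± 21.0 CPM per kb (SD, n = 4), followed by Elovl1 at 56.9 ± 2.04 and Fasn at 48.1 ± 5.02. Elovl5 (41.5 ± 1.62), Scd1 (37.1 ± 6.26), Fads2 (35.8 ± 2.87) and Srebf1 (34.1 ± 2.18) followed, and neighbours in this order from Elovl5 to Srebf1 differed by less than the larger of their SDs. Acaca (18.3 ± 0.50), Fads1 (15.3 ± 1.56) and Elovl6 (12.2 ± 0.79) were lowest. The lengths come from a reference annotation that may not be the one used for counting, and the isoforms present in these cells are not known.

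For the 3 genes whose group means differed by over 1 on the log2 scale, the genes with the most similar profile over the 16 libraries were found by the smallest root mean square (RMS) difference of centred log2 CPM, among named genes averaging 5 CPM or more, without predicted genes, antigen receptor segments and sex-linked genes. Closest to Fasn were Mlst8 (RMS 0.13), a subunit of mTOR complexes, Tnfsf8 (0.14), the CD30 ligand, and Ppp1r3e (0.16). Closest to Elovl6 were Spred2 (0.13), an inhibitor of Ras signalling, Gimap4 (0.14), a lymphocyte GTPase, and Trpv2 (0.15), a cation channel. Closest to Fads2 were Plk2 (0.20), a polo-like kinase, Fam129a (0.20) and Cep72 (0.21).

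Genes around the pathway were counted in 9 further lists, to be read against the shares of all genes called: 18.0% higher and 18.6% lower in KO against WT untreated cells, 7.89% and 7.55% for acetate in WT and 22.1% and 21.6% for acetate in KO cells. Of the 6 measured genes that supply cytosolic acetyl-CoA, NADPH and malonyl-CoA, 2 rose in KO untreated cells: Mlycd, which degrades malonyl-CoA (log2 0.54, adjusted p = 0.00342), and Mid1ip1, which promotes polymerisation of acetyl-CoA carboxylase (0.28, 0.0194). That count became 1 without the 4 libraries with the high share and 1 with library totals. Acetate lowered 2 of the 6 in WT cells: Acly, which makes acetyl-CoA from citrate (-0.33, 0.0200), and Mid1ip1 (-0.28, 0.0402). With library-total scaling neither of these WT calls held. In KO cells acetate raised Acacb, the mitochondrial carboxylase (0.95, 0.00965), from 0.676 to 1.32 CPM, and lowered Mlycd (-0.62, 0.000774) and Mid1ip1 (-0.25, 0.0315).

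In the list of 7 other measured genes of chain elongation, Hacd1 (log2 -0.71, adjusted p = 0.00198) and Hacd3 (-0.15, 0.0467), dehydratases of the cycle, fell and Elovl7 rose (0.49, 0.0371) in KO against WT untreated cells. With scaling by library totals 3 of the 7 were lower and Elovl7 was no longer called, and without the high-share libraries 1 of the 7 was called, lower. In KO cells acetate raised Elovl4 (1.22, 0.00101), from 0.788 to 1.84 CPM, Hacd1 (0.71, 0.00144) and Hacd3 (0.18, 0.0147) and lowered Hacd2 (-0.25, 0.0206). Of the 6 other desaturase genes and their electron carriers, Degs1, the ceramide desaturase, rose (0.22, 0.00293) and Cyb5a (-0.42, 0.00113), Cyb5r3 (-0.31, 0.000990) and Fads6 (-0.40, 0.00289) fell in KO untreated cells. Cyb5a encodes cytochrome b5 and Cyb5r3 its reductase, which carry electrons to the desaturases. Of all 9 lists, Cyb5a alone was called by edgeR in this fit between KO and WT cells with acetate (-0.41, 0.0307), while DESeq2 also called genes of 5 other lists. In mitochondrial fatty acid synthesis 2 of 6 were called in KO untreated cells, where 36.6% of all genes were, both higher: Mcat (0.48, 0.000123) and Acsf3 (0.56, 0.000379). Both fell with acetate in KO cells.

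Among 11 regulators of lipogenic transcription, 2 rose and 5 fell in KO untreated cells, and 1 rose and 3 fell without the high-share libraries. Nr1h3, the LXRα gene, rose from 0.420 to 0.973 CPM (log2 1.20, adjusted p = 0.0361). Nr1h2, the LXRβ gene, was far more abundant, and its mean went the other way, from 56.9 ± 4.29 to 42.4 ± 6.31 CPM (SD). All of its KO untreated libraries lay below those of WT untreated. The largest of the falls was that of Insig2, a retainer of the SREBP precursor (-0.45, 0.00213). Acetate raised Insig2 in WT (0.35, 0.0242) and KO cells (0.79, 6.17e-06) and lowered Insig1, itself an SREBP target, in WT (-0.42, 0.00146) and KO cells (-0.29, 0.00560). Of the 11 sterol genes driven by SREBP-2, Idi1 rose in KO untreated cells (0.54, 2.59e-05), from 578 ± 62.2 to 842.5 ± 41.0 CPM. Acetate lowered 6 of the 11 in WT (7.55% of all genes), with Idi1 (-0.42, 0.000943) and Cyp51 (-0.28, 0.0160) as examples, and 7 in KO cells (21.6% of all genes), among them Idi1 (-0.73, 4.21e-07) and Mvd (-0.68, 0.00556). With library totals as the scaling these counts were 2 and 3. The list's median was -0.33 in WT and -0.29 in KO cells, against 0.00 and -0.01 over all genes.

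**Figure D5:**
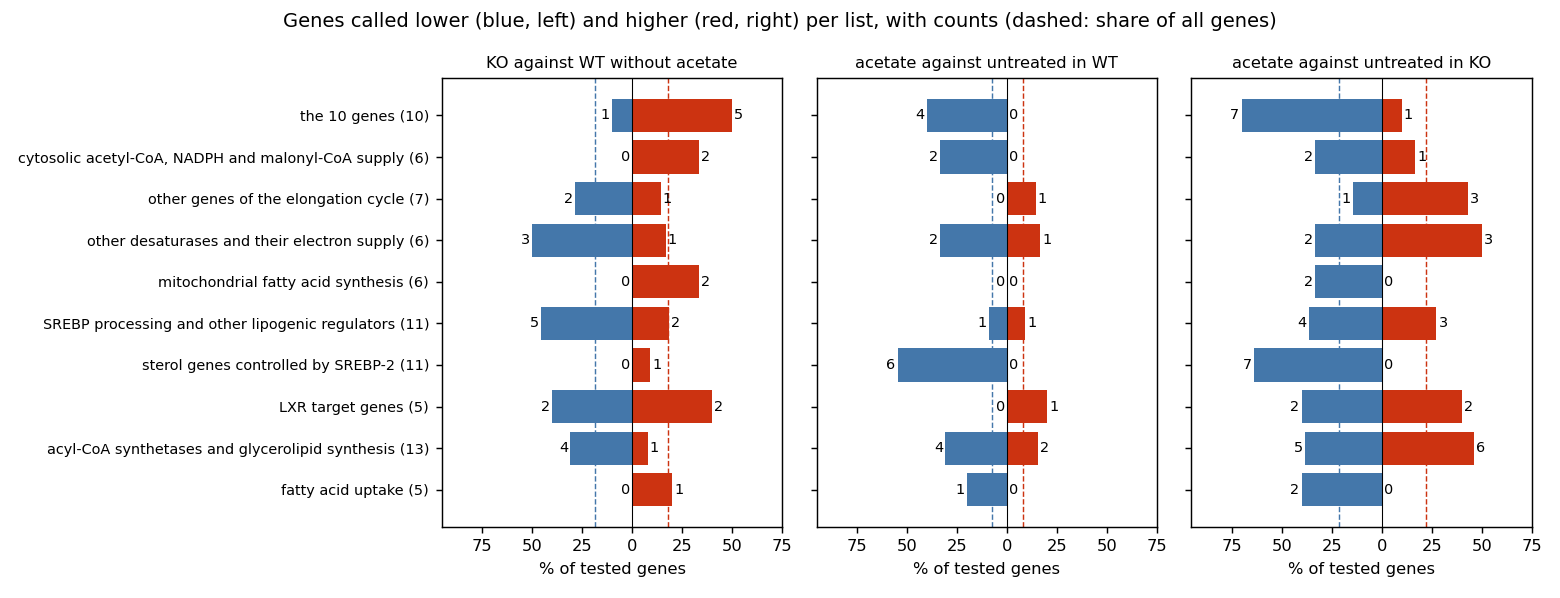
Percent of tested genes called higher (right, red) and lower (left, blue) in each list for 3 comparisons, with the number of genes at each bar and the number tested in parentheses. Dashed lines give the share of all genes. The sterol list has 6 and 7 genes lower with acetate in WT and KO cells, out of 11.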

How the data were processed

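Whole-number estimated counts per gene (expected counts) for 16 libraries were deposited by the authors in 1 table. Per the submitters' processing notes, Salmon, DESeq2 and DESeq were used, without versions; per the labels' protocols libraries were made with a stranded mRNA kit. The genome build, the annotation and the rounding were left unstated in the sources used. Every gene had at least 10 counts in at least 3 libraries. Identifiers were matched to symbols without version numbers (15221 matched, 350 did not). The members and lists were chosen with earlier results of these data known. Named genes were the 10 members, up to 3 genes per other list and comparison with the smallest adjusted p, and any needed to account for a count of 5 or fewer. One gene admitted by this rule is not reported here.

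One edgeR 4.0.16 quasi-likelihood fit (R 4.3.3, limma 3.58.1; TMM, filterByExpr, robust) held all 16 libraries, since the groups then share 1 estimate of the spread; CPM are TMM-scaled. Alternatives were DESeq2 1.42.0, library-total and upper-quartile scaling, no filter, only the compared groups, a replicate block, each library left out and, chosen after seeing the data, 4 libraries with over 3% of counts in 1 unnamed gene left out. Within groups, all 24 pairs differed by more than sampling noise (chi-square per degree of freedom 6.07 to 207.7). Scripts were tested on simulated data.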

Additional observations from a re-analysis of the deposited data

Results flagged for a closer look

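In the WT untreated group Scd2 was at 1405 CPM in replicate 1 and between 1631 and 1639 CPM in the others, so that library stood apart from its group. In the KO acetate group Fads2 was at 93.2 CPM in replicate 4 and between 108.5 and 110.9 CPM in the others. A gap of this size was looked for in 40 groups of 4 libraries, and chance alone marks about 1 in 20 groups.

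The acetate effect differed between the genotypes for Fasn, by -0.50 on the log2 scale (adjusted p = 0.0223), and for Elovl6, by 1.10 (adjusted p = 1.53e-05), in edgeR's test of the interaction.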

How the results depend on the processing

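Under all alternatives no member's called difference changed sign. The number of genes called for KO against WT without acetate was 5481, and 3361 without the 4 libraries with the high share. For KO against WT with acetate it was 150, and 831 with DESeq2, 78 with library totals, 16 with only these groups in the fit, 408 with the replicate block and 535 without the 4 libraries. The interaction had 1785 genes, and 1010 without the 4 libraries. Of the 10 members, 1 was called with acetate, and 3 with DESeq2, 2 with upper-quartile scaling, 2 with the replicate block, and 0 with library totals or with only the groups in the fit (4 at an unadjusted p under 0.05 in edgeR in each case). Acetate in WT cells had 4 members, and 2 with library totals or without the 4 libraries; the interaction had 2, and 1 in either case.

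With each library left out in turn, genes called ranged from 4491 to 5587 for KO against WT without acetate (members 5 to 7), 21 to 661 with acetate (members 0 to 1), 1569 to 2370 for acetate in WT (2 to 5), 5817 to 6652 for acetate in KO (7 to 8), 2944 to 4097 for KO acetate against WT untreated (2 to 3) and 1277 to 1999 for the interaction (1 to 2). The cause was not tested.

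Replicate numbers did not meet the criterion for pairing, a correlation over 0.1 in every pair: the correlations of same-numbered libraries' deviations ran from -0.08 to 0.23 over 24 pairs, 9 of them over 0.1, and 9 of 16 libraries correlated best with their own number, a hint from the data that some may share a source, which the labels do not state. The block raised the number of genes called in all 6 comparisons. The replicate block also called Fasn with acetate (adjusted p = 0.0463).

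The scaling changed the split of called genes. With library totals it was 1914 higher and 3217 lower for KO against WT without acetate in place of 2699 and 2782 (upper quartile 3243 and 2227), 28 and 50 with acetate in place of 73 and 77 (upper quartile 114 and 66), 1196 and 558 for acetate in WT in place of 1183 and 1132 (upper quartile 1394 and 879), 4229 and 2085 for acetate in KO in place of 3314 and 3236, 1911 and 1254 for KO acetate against WT untreated in place of 1935 and 2019 (upper quartile 2540 and 1423), and 939 and 442 for the interaction in place of 955 and 830.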

Other observations

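Genes that use or take up fatty acids were called in both directions. Of 13 genes for acyl-CoA synthetases and glycerolipid synthesis, 1 rose and 4 fell in KO against WT untreated cells, a share near the 36.6% of all genes called, and 1 rose and 2 fell without the 4 libraries with the high share of an unnamed gene. Dgat2, one of the enzymes of the last step of triglyceride synthesis, rose from 1.30 ± 0.288 to 3.88 ± 0.542 CPM (log2 1.57, adjusted p = 1.97e-05), while Dgat1, the other such enzyme, fell from 18.4 ± 3.72 to 8.94 ± 0.131 CPM (-1.04, 0.0107). Acsl6 (-1.48, 0.00135), Agpat1 (-0.36, 0.000692) and Acsl4 (-0.36, 0.0328) fell as well. With acetate in KO cells, where 43.7% of all genes were called, 6 rose (4 without those libraries), among them Acsl6 (2.23, 1.99e-05) and Acsl4 (0.90, 2.22e-05), and 5 fell, among them Acsl5 (-0.47, 6.11e-07) and Dgat2 (-0.92, 0.00139). Fabp5, a fatty acid carrier, rose in KO untreated cells (0.29, 0.00222) and fell with acetate in WT (-0.63, 6.73e-06) and KO cells (-0.84, 1.75e-08). Of 5 LXR target genes, Abcg1 (0.93, 0.000710) and Mylip (0.62, 0.00184) rose and Smpdl3a (-0.82, 0.000728) and Lpcat3 (-0.34, 0.00176) fell in KO untreated cells.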
